A study of Ovis aries with 10 samples.

Results

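A set of 10 genes known as glucocorticoid targets was followed in the left ventricle of fetal sheep near term: TXNIP, MTHFD2, PCK1, HIF3A, RGS2, NFKBIA, CDKN1C, CEBPB, FBXO32 and PTGDS. They were found by name among the 1008 gene names that the array carried. Together they had 17 probes, of which 15 carried the gene's name in the files, 1 RGS2 probe its name in the description, and 1 MTHFD2 probe only the transcript cluster it shares with the other probes for that gene. Every one of the 17 was bright enough to be tested, 13 of them well above background on all 10 arrays.

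The fetuses were singletons whose mothers carried an infusion from about day 115 of pregnancy. Cortisol ewes received 1 mg/kg/day of cortisol (Solu-Cortef) and control ewes vehicle, with 7 ewes in each group and the infusion given to the mother rather than the fetus. All ewes were killed soon after labour had begun, at 139 to 144 days, in both groups. RNA from the free wall of the left ventricle of 5 fetuses per group was read on 1 array each. No genotype, breed, sex or hormone level was given in the sources used here.

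Cortisol enters heart cells and binds the glucocorticoid receptor, a transcription factor that moves to the nucleus and raises some genes while lowering others. Its classical targets include inhibitors of inflammatory signalling, enzymes that make glucose, brakes on cell division and regulators of protein breakdown, and in late gestation the rise in cortisol helps mature the fetal heart and other organs. The 10 genes here sample each of these branches.

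The probes of the 5 genes read by more than 1 probe are shown first, because their agreement with each other is a check on the values of these genes. CDKN1C, CEBPB, FBXO32, NFKBIA and PTGDS had a single probe each and no such check. All are DNA 60-mers read 5′ to 3′, and capitals mark the stretch that a probe shares with the other probe for the same gene; probes in lower case throughout overlap no other. The paired HIF3A probes, like the paired PCK1 probes, are shifted by a single base along the transcript.

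TXNIP A_70_P001431: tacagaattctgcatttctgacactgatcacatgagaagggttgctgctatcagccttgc
TXNIP A_70_P001432: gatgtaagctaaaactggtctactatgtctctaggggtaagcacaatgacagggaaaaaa
MTHFD2 A_70_P045141: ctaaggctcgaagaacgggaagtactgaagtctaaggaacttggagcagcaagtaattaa
MTHFD2 A_70_P045142: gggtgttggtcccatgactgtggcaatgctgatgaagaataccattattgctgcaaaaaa
MTHFD2 A_70_P062896: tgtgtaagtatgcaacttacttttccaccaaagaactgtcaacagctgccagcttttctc
PCK1 A_70_P001436: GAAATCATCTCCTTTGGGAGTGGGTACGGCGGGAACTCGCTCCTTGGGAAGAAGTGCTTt
PCK1 A_70_P001437: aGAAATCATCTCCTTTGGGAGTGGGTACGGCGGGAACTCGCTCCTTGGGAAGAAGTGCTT
HIF3A A_70_P014646: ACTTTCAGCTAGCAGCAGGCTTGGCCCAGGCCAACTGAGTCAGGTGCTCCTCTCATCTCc
HIF3A A_70_P014647: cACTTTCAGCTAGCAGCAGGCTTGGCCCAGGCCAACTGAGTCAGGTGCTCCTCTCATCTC
RGS2 A_70_P006726: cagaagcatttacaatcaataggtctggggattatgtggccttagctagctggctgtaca
RGS2 A_70_P012621: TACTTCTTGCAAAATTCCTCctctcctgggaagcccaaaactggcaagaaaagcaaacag
RGS2 A_70_P012622: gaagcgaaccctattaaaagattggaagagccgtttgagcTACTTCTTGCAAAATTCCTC

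Levels are log2 of the background-subtracted spot intensity relative to the 75th percentile of the same array, so 0 is a fairly bright spot and each unit a doubling. Different probes bind with different strength, so levels are compared between fetuses and never between probes. The 75th percentile was 177 to 286 scanner units over the arrays, on which 63.5% to 73.2% of spots stood well above background. Cortisol replicate 4 had an area of lost signal covering 1283 spots (8.44% of its non-control spots), which held 1 HIF3A and 1 PCK1 probe, and no such area was found on the other arrays. Slide 1 carried 3 arrays of each group and slide 2 the remaining 2 of each. The description of 9 of the 10 samples names biceps femoris where the other labels name the left ventricle, and the other labels were followed. The cardiac markers found (3 of 9 listed: TPM1, CRYAB and MYH7) summed to between 826 and 997 times the 75th percentile on control and between 697 and 1022 times on cortisol arrays. The fast skeletal muscle markers found (6 of 8 listed) summed to 5.95 to 10.7 times the 75th percentile on control and 4.49 to 9.46 times on cortisol arrays. Of these, PYGM and TNNC2 were well above background on all 10 arrays and MYOD1 on 6, and the myosins MYH1 and MYH2 and the myogenic factor MYF5 on none. The cardiac and skeletal sums come from different probes and are not compared, so they do not settle which label is right.

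None of the 10 genes passed the test for a difference between cortisol and control fetuses. With limma and Benjamini-Hochberg adjustment over all 10261 probes tested, 0 of the 17 member probes and 0 probes in all were called (0% of those tested), with no adjusted p below 0.990. Before adjustment 2 of the 17 member probes, both for TXNIP, had a limma p under 0.05, as did 3.25% of all probes (333). The control and cortisol arrays overlapped for every member probe, while 0.799% of all probes (82) had groups that did not overlap. With cortisol 7 member probes were higher and 10 lower, with a median difference of -0.13 on the log2 scale against -0.00 over all probes, which were 5010 higher and 5251 lower. After normexp background correction all probes split into 6849 higher and 3412 lower and their median moved to 0.06.

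**Figure D1:**
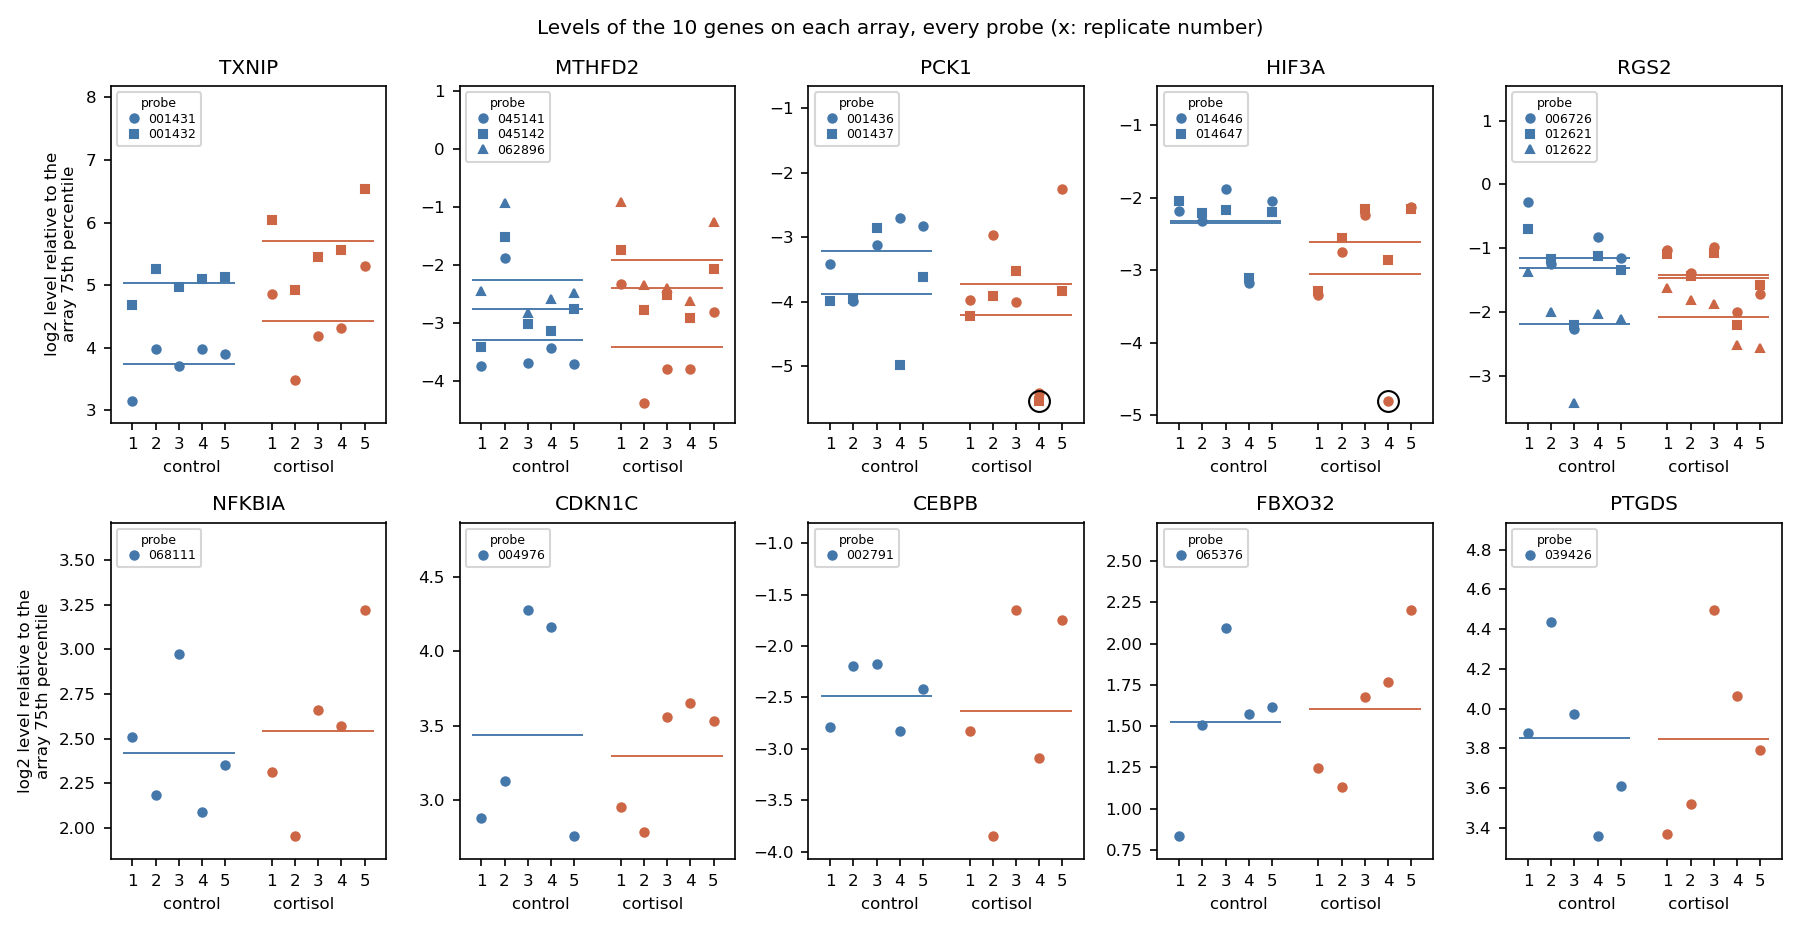
Log2 level relative to the 75th percentile of the array (y) on each array (x: replicate number within group) for the 10 genes, with 1 symbol shape per probe, blue for control, orange for cortisol, and lines at the group means; rings mark values in the area of lost signal on cortisol replicate 4. The groups overlap in every panel. The TXNIP probes rise and fall together from array to array, while the MTHFD2 probes share their highest arrays and order the lower ones less alike. Heights of different probes are not comparable.

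TXNIP encodes an inhibitor of thioredoxin that also limits glucose uptake. Of the 10 genes it was the one whose probes differed most clearly between groups, higher with cortisol by 0.67 ± 0.27 (SE, n = 5 and 5) on the log2 scale, or 1.59-fold, at probe A_70_P001432. On control arrays 1 to 5 that probe read 4.69, 5.26, 4.97, 5.11 and 5.14, a mean of 5.03 ± 0.22 (SD, n = 5). On cortisol arrays 1 to 5 it read 6.04, 4.92, 5.45, 5.56 and 6.54, a mean of 5.70 ± 0.62 (SD, n = 5). Cortisol replicates 1, 3, 4 and 5 lay above every control array, and cortisol replicate 2 lay below the control mean. The limma unadjusted p was 0.0288, rank 152 among all probes, and the adjusted p was 0.990.

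The other TXNIP probe, A_70_P001431, does not overlap the first. It read 3.14, 3.98, 3.70, 3.98 and 3.90 on the control arrays and 4.86, 3.49, 4.19, 4.31 and 5.30 on the cortisol arrays, a difference of 0.69 ± 0.31 (SE) with a 95% confidence interval of 0.00 to 1.38 (limma unadjusted p 0.0488, adjusted p 0.990). Both TXNIP probes placed the fetuses in nearly the same order (Pearson r 0.987, Spearman rho 0.988 over 10 arrays, and r 0.965 without the 2 arrays farthest from the median). The spread was wider with cortisol, by 2.80 times in SD at A_70_P001432 and 1.96 times at A_70_P001431, where the median ratio over all probes was 1.34. Within slide 1 the differences were 0.50 and 0.57, and within slide 2 they were 0.93 and 0.87, in the same order of probes.

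Over the 19 alternatives tried for each TXNIP probe, the difference was above 0 in all 19, from 0.46 to 0.93 at A_70_P001432 and from 0.47 to 0.93 at A_70_P001431. The limma unadjusted p ranged from 0.0036 to 0.14 at the first and from 0.0056 to 0.165 at the second, lowest without cortisol replicate 2. It was under 0.05 in 11 and 6 of the 19. The alternatives are not independent of each other. Keeping flagged spots, leaving out the lost area and blocking by slide or replicate number could not change the difference (0.67 and 0.69). Fits that left out an array shared the remaining arrays.

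Smooth muscle markers set the same cortisol arrays above the control arrays as TXNIP did, but did not follow its order within either group. Other marker lists are given below. Of the 5 listed, CNN1 and MYLK were found, both well above background on all 10 arrays. Their summed level was 11.8, 9.33, 9.28, 12.9 and 10.6 times the 75th percentile on control arrays 1 to 5, and 54.4, 9.01, 14.2, 18.1 and 17.1 times on cortisol arrays 1 to 5. Cortisol replicates 1, 3, 4 and 5 again lay above every control array and cortisol replicate 2 below them. Among the control arrays, TXNIP probe A_70_P001432 was lowest on replicate 1 (4.69) and highest on replicate 2 (5.26), unlike the markers. Among the cortisol arrays that probe was highest on replicate 5 (6.54), where the markers summed to 17.1, and the markers were highest on replicate 1 (54.4). CNN1, a protein of the smooth muscle contractile apparatus, differed by 1.01 ± 0.51 (SE) on the log2 scale, and MYLK by 0.32 ± 0.18 (SE). The adjusted p was 0.990 in limma for each. The part of these markers in the TXNIP values was not tested. In bulk tissue, a change in the share of a cell type and a change in RNA per cell cannot be told apart.

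**Figure D2:**
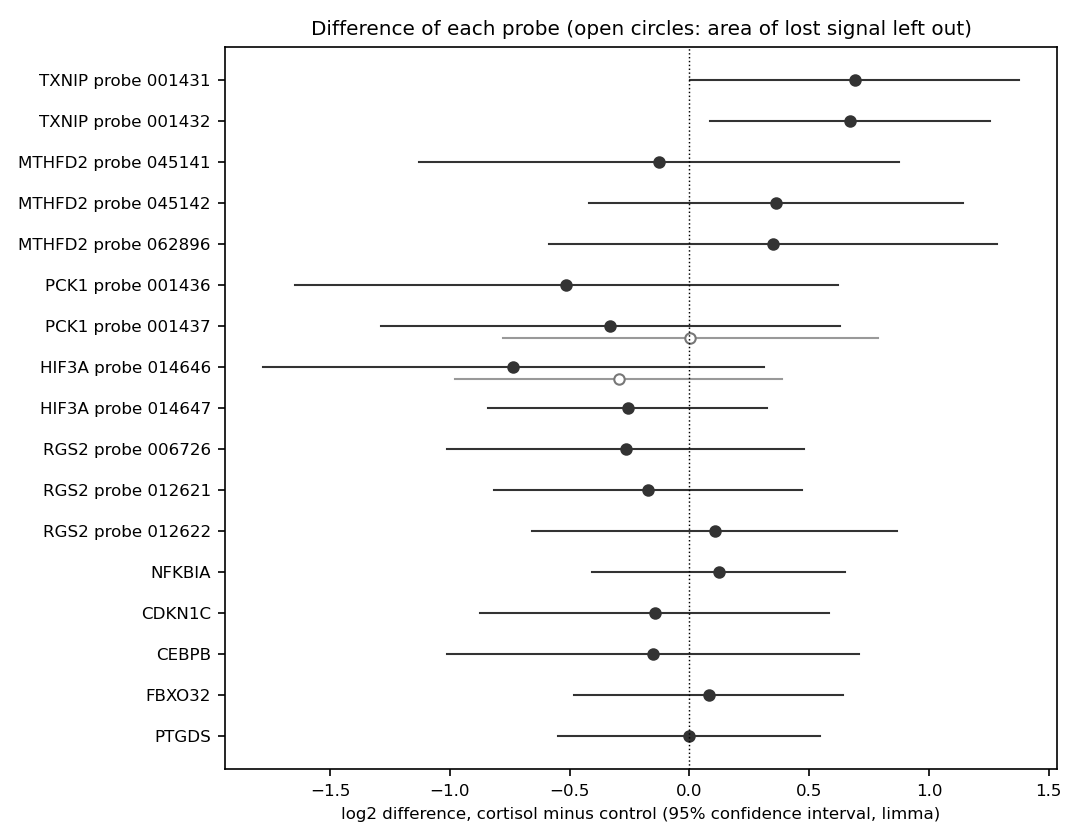
Log2 difference, cortisol minus control (x), with its 95% confidence interval from limma for each of the 17 probes (y; 5 arrays per group); open circles give the same with the area of lost signal left out. The intervals of the TXNIP probes lie above 0 before adjustment, and those of the other 15 probes span 0.

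MTHFD2 is a mitochondrial enzyme of folate-dependent one-carbon metabolism. Its levels split the fetuses into high and low ones in a way that cut across treatment. Probe A_70_P062896 read -2.46, -0.93, -2.83, -2.59 and -2.49 on control arrays 1 to 5 and -0.92, -2.35, -2.40, -2.62 and -1.27 on cortisol arrays 1 to 5. Control replicate 2 and cortisol replicates 1 and 5 stood at least 1 log2 unit above each of the other arrays. The difference between groups was 0.35 ± 0.42 (SE), with a 95% confidence interval of -0.59 to 1.29. It was 0.68 without control replicate 2 and 0.10 without cortisol replicate 1.

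The other MTHFD2 probes were highest in the same 3 fetuses. A_70_P045142 read -3.41, -1.51, -3.02, -3.14 and -2.75 on control and -1.74, -2.77, -2.52, -2.92 and -2.07 on cortisol arrays, a difference of 0.36 ± 0.35 (SE), or 0.68 without control replicate 2 (limma unadjusted p 0.0233) and 0.20 without cortisol replicate 1. A_70_P045141 read -3.75, -1.89, -3.70, -3.43 and -3.71 on control and -2.32, -4.38, -3.80, -3.80 and -2.82 on cortisol arrays, a difference of -0.13 ± 0.45 (SE). Its lowest reading, on cortisol replicate 2 (8.89 scanner units), was not well above background, and without that array the difference was 0.11. Correlations between pairs of these probes were 0.836 to 0.924 (Pearson) and 0.406 to 0.782 (Spearman) over 10 arrays, so the lower values were ordered less alike than the 3 high ones. Without the 2 arrays farthest from the median, r was 0.447 to 0.780.

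PCK1 encodes cytosolic phosphoenolpyruvate carboxykinase, the rate-limiting step of glucose synthesis in the liver. It was dim in the ventricle, at 4.14 to 50.6 scanner units on one probe and 3.79 to 33.3 on the other. A_70_P001436 read -3.41, -4.00, -3.12, -2.71 and -2.82 on control arrays and -3.98, -2.97, -4.01, -5.42 and -2.25 on cortisol arrays, a difference of -0.51 ± 0.51 (SE). Its lowest reading, on cortisol replicate 4, was not well above background, and without that array the difference was -0.091. A_70_P001437 read -3.99, -3.96, -2.86, -4.99 and -3.61 on control and -4.23, -3.92, -3.53, -5.55 and -3.84 on cortisol arrays, where the value of cortisol replicate 4 fell in the area of lost signal. Its difference was -0.33 ± 0.43 (SE) and 0.00 ± 0.35 without that area.

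Although these PCK1 probes share 59 of their 60 bases, they did not order the fetuses alike: Pearson r was -0.085 and Spearman rho -0.083 over the 9 arrays outside the area, and r was 0.007 without the 2 farthest. A_70_P001436 was well above background on 9 arrays and A_70_P001437 on 8. After normexp both group differences turned to above 0 (0.11 and 0.14), and in the authors' deposited values they were -0.11 and -0.045.

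HIF3A, a member of the hypoxia-inducible factor family that can restrain the others, gave the opposite picture with the same probe design. A_70_P014647 read -2.04, -2.21, -2.17, -3.11 and -2.20 on control arrays and -3.29, -2.56, -2.15, -2.86 and -2.16 on cortisol arrays, a difference of -0.26 ± 0.26 (SE) with a 95% confidence interval of -0.84 to 0.32. Control replicate 4 and cortisol replicate 1 were the lowest in their groups, and cortisol replicates 3 and 5 lay among the remaining control arrays. After normexp this difference was 0.02.

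The HIF3A probe shifted by a base, A_70_P014646, read -2.18, -2.31, -1.88, -3.17 and -2.05 on control and -3.34, -2.74, -2.24, -4.81 and -2.13 on cortisol arrays. The reading of -4.81 came from inside the area of lost signal on cortisol replicate 4, and the other HIF3A probe read -2.86 on the same array. The difference was -0.73 ± 0.47 (SE) with that value, or 1.66-fold lower with cortisol, and -0.30 ± 0.31 without it. After normexp it was -0.13. Over the 9 arrays outside the area both HIF3A probes gave a Pearson r of 0.958 and a Spearman rho of 0.700 (r 0.792 without the 2 farthest), so the near-identical probes agreed for HIF3A and not for PCK1.

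**Figure D3:**
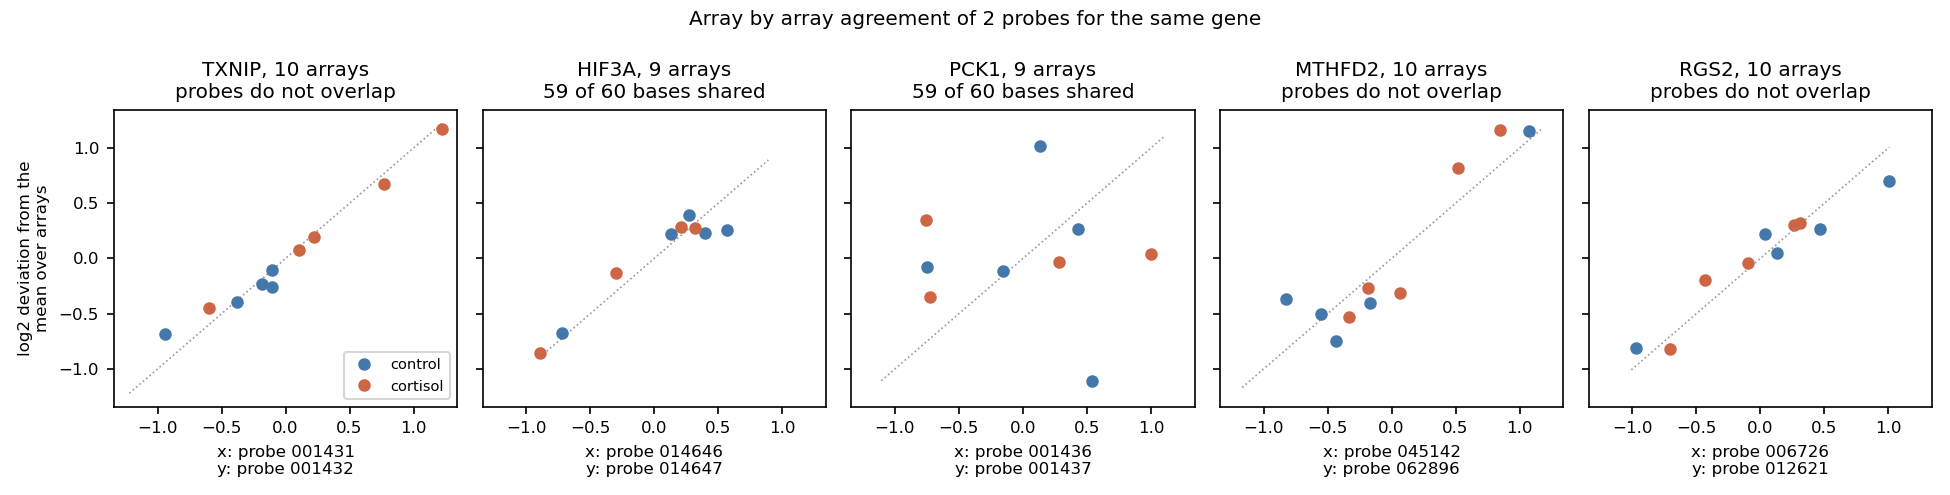
Log2 deviation of each array from the mean over arrays for 1 probe (x) against another probe for the same gene (y), with blue for control, orange for cortisol and a dotted line of equality; cortisol replicate 4 is left out where a probe fell into that array's area of lost signal. Points follow the line of equality for TXNIP (Pearson r 0.987), HIF3A (0.958), MTHFD2 (0.924) and RGS2 (0.961) but scatter for PCK1 (-0.085), whose probes share 59 of 60 bases.

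RGS2 shortens signals from G protein-coupled receptors such as those for angiotensin and endothelin. Probe A_70_P006726 read -0.28, -1.25, -2.26, -0.82 and -1.15 on control arrays and -1.03, -1.38, -0.98, -2.00 and -1.72 on cortisol arrays, a difference of -0.27 ± 0.34 (SE). The cortisol arrays lay within the range of the control arrays, whose replicates 1 and 3 were the highest and the lowest of all 10. Control replicate 3 was also lowest of the control arrays at the other RGS2 probes, A_70_P012621 (-2.20) and A_70_P012622 (-3.42).

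Their group differences were -0.17 ± 0.29 and 0.11 ± 0.34 (SE), so the RGS2 probes did not share a sign. Between pairs of RGS2 probes, Pearson r was 0.880 to 0.961 and Spearman rho 0.733 to 0.939 over 10 arrays, and r stayed at 0.773 to 0.929 without the 2 farthest. The group difference pointed in opposite directions on the slides: at A_70_P006726 it was 0.14 on slide 1 and -0.87 on slide 2. The difference between slides did not pass (-1.0 ± 0.66 (SE), interaction in limma, adjusted p 0.888).

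NFKBIA encodes IκBα, which holds NF-κB in the cytoplasm and is a textbook glucocorticoid-induced inhibitor of inflammation. Its probe read 2.51, 2.18, 2.97, 2.09 and 2.35 on control and 2.31, 1.95, 2.66, 2.57 and 3.22 on cortisol arrays. Group means were 2.42 ± 0.35 and 2.54 ± 0.47 (SD, n = 5 each), a difference of 0.12 ± 0.24 (SE) with a 95% confidence interval of -0.41 to 0.65, the narrowest of the 10 genes. The highest reading, on cortisol replicate 5, and the lowest, on cortisol replicate 2, both came from cortisol fetuses. On slide 1 the difference was -0.25 and on slide 2 it was 0.68, and this contrast between slides had the smallest unadjusted p of the 17 probes (0.92 ± 0.43 (SE), limma unadjusted p 0.0612, adjusted p 0.888).

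CDKN1C is an imprinted inhibitor of cyclin-dependent kinases that restrains fetal growth. It read 2.88, 3.13, 4.28, 4.16 and 2.76 on control and 2.95, 2.79, 3.56, 3.65 and 3.53 on cortisol arrays. Control replicates 3 and 4 stood above all other arrays, and the remaining control arrays were in the lower part of the range. The difference was -0.15 ± 0.33 (SE), with a 95% confidence interval of -0.87 to 0.58, and it turned to 0.06 without control replicate 3.

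CEBPB encodes a transcription factor of the acute-phase response and of energy metabolism. It read -2.79, -2.20, -2.17, -2.83 and -2.42 on control and -2.83, -3.85, -1.65, -3.08 and -1.75 on cortisol arrays. Cortisol fetuses held both the lowest readings and the 2 highest, and the SD was 0.31 in control and 0.93 in cortisol fetuses, a ratio of 2.96. The difference was -0.15 ± 0.39 (SE), with a 95% confidence interval of -1.01 to 0.71. It was 0.08 after normexp and 0.15 without cortisol replicate 2.

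FBXO32 encodes atrogin-1, the muscle ubiquitin ligase subunit that marks proteins for breakdown. It read 0.83, 1.51, 2.09, 1.57 and 1.62 on control and 1.25, 1.13, 1.67, 1.77 and 2.20 on cortisol arrays, a difference of 0.08 ± 0.25 (SE) with a 95% confidence interval of -0.48 to 0.64. Control replicate 1 was the lowest of the 10 and cortisol replicate 5 the highest. Without the first the difference was -0.09.

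PTGDS makes prostaglandin D2 and is known as a heart-expressed glucocorticoid target. It read 3.88, 4.44, 3.97, 3.36 and 3.61 on control and 3.37, 3.52, 4.50, 4.06 and 3.79 on cortisol arrays. The group means nearly coincided, at 3.85 ± 0.41 and 3.85 ± 0.45 (SD, n = 5 each), and the difference was -0.00 ± 0.25 (SE) with a 95% confidence interval of -0.55 to 0.54. It was -0.30 on slide 1 and 0.45 on slide 2.

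The 10 genes varied more between fetuses of the same group than most probes on the array. Their median within-group SD was 0.58 on the log2 scale with the area of lost signal left out, against 0.25 over all 10261 probes. Dim probes are noisier, so each was also ranked among the 1026 or 1027 probes of its own level bin, of 10 bins with about equal numbers of probes. All 17 lay above the median of their bin, from percentile 72.0 (PCK1 A_70_P001437) to percentile 97.8 (PCK1 A_70_P001436), with a median percentile of 94.7. By construction 50% of all probes lie above it, and of the 964 tested probes with a gene name 61.9% did, at a median percentile of 62.0. The 17 probes stand for 10 genes and are not independent of each other.

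Bright genes showed this as well as dim ones. TXNIP probe A_70_P001431 had a within-group SD of 0.55 where its bin had a median of 0.19 (percentile 97.0). CDKN1C had 0.58 (percentile 97.5), PTGDS 0.43 (percentile 92.8) and NFKBIA 0.41 where its bin had a median of 0.20 (percentile 91.8). With normexp 16 of the 17 were above the median of their bin and with the authors' deposited values 17, and leaving out any 1 array gave 16 or 17. The standard errors followed: the median SE of the difference was 0.34 for the 17 probes and 0.17 over all probes.

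Which treatment group was the more spread differed between the probes. The SD was larger with cortisol for 11 of the 17 probes (64.7%), where it was larger for 68.7% of all probes, and the median ratio of SDs was 1.04 against 1.34. CDKN1C (ratio 0.55) and RGS2 (0.58 to 0.83) were more spread in control fetuses, and CEBPB and TXNIP in cortisol fetuses.

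**Figure D4:**
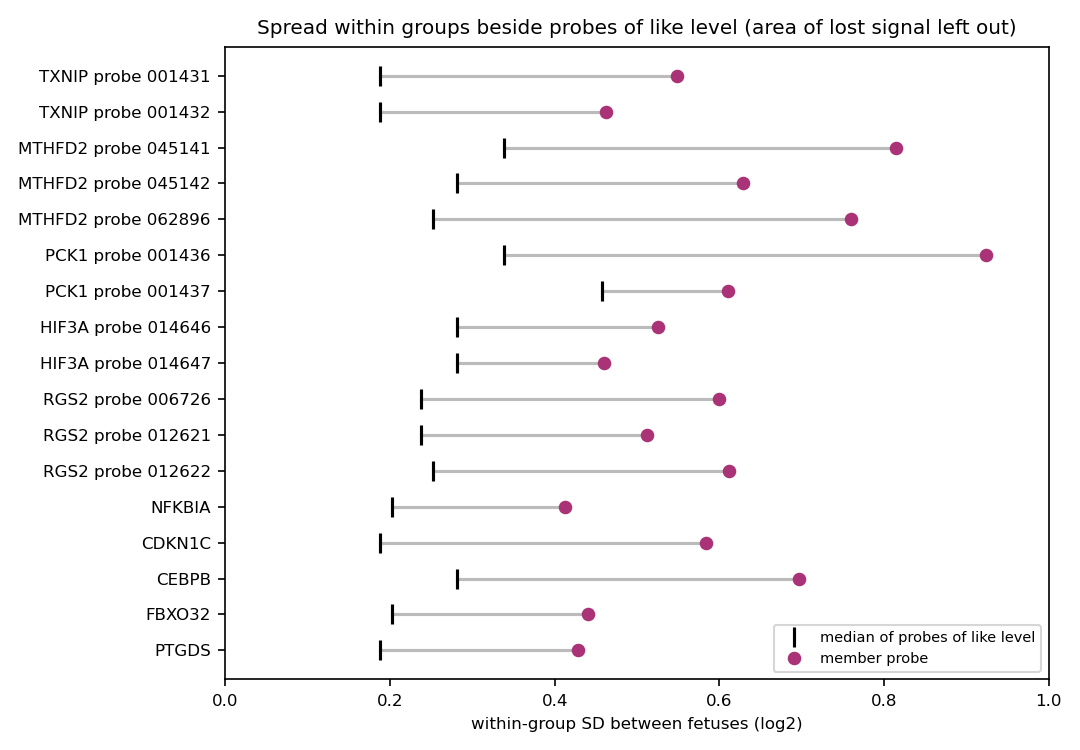
Within-group SD between fetuses on the log2 scale (x) for each of the 17 probes (points; y), beside the median SD of the probes in the same of 10 level bins (black ticks), area of lost signal left out. All 17 points lie to the right of their tick, by least for PCK1 A_70_P001437.

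The genes were then compared with each other across the 10 arrays, with the brightest probe of each. None of the 45 pairs passed (permutation test, smallest adjusted p 0.368). Of the 45, 28 had a positive and 17 a negative Pearson r, with a median r of 0.133, and 5 had an unadjusted p under 0.05. Pairs of other genes were not counted in this way, so these counts are not read as particular to the 10 genes. All pairs share the arrays, their scaling and their slides, and slide 2 held too few arrays (4) for a value of its own.

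The strongest relation was between FBXO32 and RGS2, which ran in opposite directions: Pearson r was -0.764 (permutation p 0.0105, adjusted p 0.368) and Spearman rho -0.624 (permutation p 0.0598, adjusted p 0.430). It was -0.612 without the 2 arrays farthest from the FBXO32 median and -0.824 over the 6 arrays of slide 1 (exact permutation p 0.0542). FBXO32 and NFKBIA ran together (r 0.699, permutation p 0.0246, rho 0.758, permutation p 0.0152, and r 0.853 without the 2 farthest). On slide 1 that r was 0.636 (exact permutation p 0.171). Without control replicate 1, the array lowest for FBXO32, r was 0.909 and this pair alone of the 45 passed (exact permutation test, adjusted p 0.0453, 9 arrays).

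FBXO32 and CDKN1C had r 0.665 (permutation p 0.0364, rho 0.612, permutation p 0.067), 0.718 without the 2 farthest, and 0.924 on slide 1 (exact permutation p 0.00417). CEBPB and NFKBIA had r 0.686 (permutation p 0.0275, rho 0.673, permutation p 0.0378), 0.603 without the 2 farthest and 0.695 on slide 1 (exact permutation p 0.111), but r was 0.489 after normexp and 0.265 in the authors' deposited values. The r of CEBPB with FBXO32 fell likewise, from 0.610 to 0.342 after normexp and 0.0745 in the deposited values. MTHFD2 and TXNIP had r 0.642 (permutation p 0.0409), rho 0.406 (permutation p 0.246), 0.818 without the 2 farthest and 0.695 on slide 1 (exact permutation p 0.132), and shared their high readings on cortisol replicates 1 and 5. The adjusted Pearson permutation p was 0.368 for each of the 5 pairs with an unadjusted p under 0.05.

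**Figure D5:**
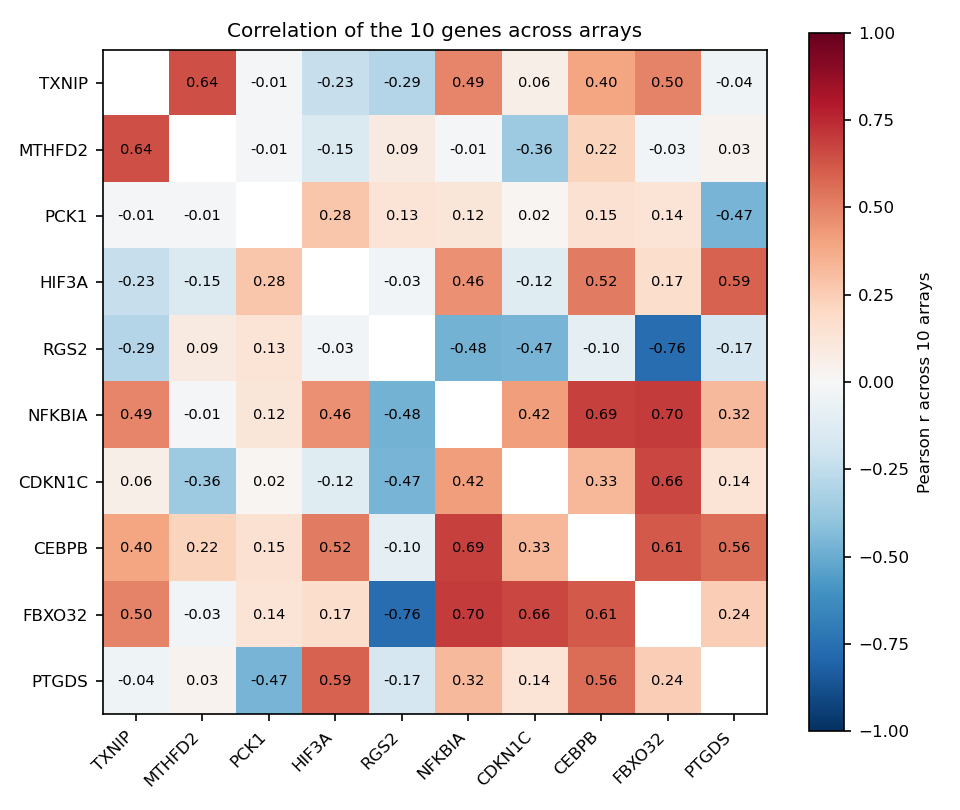
Pearson r across the 10 arrays for each of the 45 pairs of genes, red for positive and blue for negative (colour scale from -1 to 1), with the brightest probe of each gene. FBXO32, NFKBIA and CDKN1C have positive r with each other, as does CEBPB with them here but not with CDKN1C in the authors' deposited values (-0.013), RGS2 has a negative r with FBXO32 (-0.76), and no pair passed after adjustment.

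Outside the 10, the genes with the most similar pattern over arrays were sought among 608 other named genes, by Pearson r with the area of lost signal left out. TXNIP was most like HSP70.1, an inducible heat shock protein (r 0.863, rho 0.433 over 9 arrays), and the integrin subunit ITGB1 (r 0.860, rho 0.515). FBXO32 was most like PTGS1, a prostaglandin synthase (r 0.956, rho 0.967 over 9 arrays), and IGFBP6, which binds insulin-like growth factors (r 0.873, rho 0.939).

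CEBPB was most like EPAS1, a hypoxia-inducible factor subunit (r 0.921), and the protease inhibitor TIMP3 (r 0.914). HIF3A was most like COX15, needed for assembly of cytochrome oxidase (r 0.929), and the sodium pump subunit ATP1B1 (r 0.914). CDKN1C was most like SLC9A3R1 (r 0.902) and XCL1 (r 0.898), and NFKBIA most like NRF1 (r 0.901 over 9 arrays) and RHOBTB2 (r 0.852). The NRF1 probe was well above background on only 5 arrays. MTHFD2 was most like the phosphatase subunit PPP2CA (r 0.870, rho 0.661) and JUND (r 0.858, rho 0.624). PCK1 probe A_70_P001436 was most like NOG (r 0.843, rho 0.950 over 9 arrays) and the gap junction protein GJA1 (r 0.816, rho 0.491). The other PCK1 probe did not follow that probe (r -0.085), so these likenesses hold for A_70_P001436 alone. PTGDS was most like the heart chaperone CRYAB (r 0.836) and ROBO4 (r 0.800). RGS2 was most like LOC780773, described as a coatomer subunit (r 0.905), and TPM1 (r 0.756 over 9 arrays). Each is the highest of many correlations over few arrays and is a description only.

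The pathways around the 10 genes were read from 10 lists of 166 names, of which 56 were found by name and 38 tested. Of the 15008 non-control probes only 1658 had a gene name, so a gene not found may still have an unnamed probe. None of the 38 was called, 2 had an unadjusted p under 0.05 (3.25% of all probes did), and 18 were higher and 20 lower with cortisol, with a median of -0.04 on the log2 scale, or 0.04 without the area of lost signal. Among the receptors and hormone-handling genes (6 tested, 3 higher), the receptor chaperone HSP90AA1 had the smallest p (0.21 ± 0.10 (SE) on the log2 scale). The glucocorticoid receptor NR3C1 had -0.58 ± 0.62, and 0.12 with the lost-signal reading of cortisol replicate 4 left out. Of other glucocorticoid-induced genes only 3 were tested (2 higher), with the clock gene PER2 at 0.10 ± 0.15 (SE).

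Among the thioredoxin and one-carbon genes (4 tested, 2 higher), the probe that the files name SHMT2 and its RefSeq accession names SHMT1, a serine hydroxymethyltransferase that feeds one-carbon units into the folate cycle, had -0.88 ± 0.39 (SE). Among the gluconeogenic genes (3 tested, 1 higher), CREB1, the transcription factor that carries cyclic AMP signals, had 0.28 ± 0.11 (SE). These 2 had limma unadjusted p values of 0.0455 and 0.0309, and an adjusted p of 0.990. Of the hypoxia genes (6 tested, 4 higher), EPAS1 had the smallest p at 0.42 ± 0.23 (SE) on its brightest probe, and the EPAS1 probe most like CEBPB had -0.02 ± 0.13.

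In the G protein and cell cycle list (8 tested, 4 higher) CDKN1B, a relative of CDKN1C, had 0.40 ± 0.22 (SE). For the NF-κB list (2 tested, 1 higher) ICAM1 had 0.26 ± 0.24, and the cytokines IL6 and TNF were well above background on no array. From the CEBP family list DDIT3 alone was found by name (-0.18 ± 0.28). In the muscle breakdown list (3 tested, 1 higher) the growth signalling kinase AKT1 had -0.24 ± 0.13, and in the prostaglandin list (2 tested, 0 higher) PTGS1 had -0.17 ± 0.20, or 0.01 without the area of lost signal. All of these missed the threshold with an adjusted p of 0.990 in limma.

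Markers of other cell types gave the following ranges of summed level, in multiples of the 75th percentile. HBB, the 1 red cell marker found of 5, ran from 9.05 to 67.0 on control and 3.97 to 96.0 on cortisol arrays. Fat cell markers (5 of 7: LPL, PPARG, PLIN1, FABP4 and LEP) ran from 9.51 to 15.3 and 11.2 to 18.9, endothelial markers (4 of 6) from 6.57 to 10.9 and 7.84 to 9.23, fibroblast markers (3 of 6) from 47.4 to 81.4 and 50.9 to 73.3, and leukocyte markers (3 of 6) from 0.267 to 0.630 and 0.266 to 0.519. Control and cortisol ranges overlapped for each list. The endothelial sum held genes that went in opposite directions. TIE1 had -0.53 ± 0.13 (SE) on the log2 scale (limma unadjusted p 0.0034, 3 cortisol arrays with a value) and TEK 0.58 ± 0.24 (limma unadjusted p 0.036). MYOD1 of the fast skeletal list had -0.59 ± 0.17 (limma unadjusted p 0.0053). The adjusted p of each was 0.990. The part of these markers in the values of the 10 genes was not tested.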

How the data were processed

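Labelled (Cy3) cRNA was hybridised to 1-colour Agilent sheep arrays, per the labels, and spots were measured by version 10.1.1.1 of Agilent Feature Extraction, per the submitters' processing notes. The processed intensity was background-subtracted and detrended within each array, per the file headers, while the mean, median and local background intensity were deposited uncorrected. The authors' deposited table held log2 values nearly equal in their quantiles between arrays; how it was made is not given in the sources used here, and its scale and lack of gene centring were read from its order within arrays (Spearman correlation 1 with median minus local background), and its column medians were 5.77 to 5.79.

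Of 15744 spots per array, 536 controls were left out, as were spots marked non-uniform, population outlier or not found (520 to 1187 per array). No spot was saturated. Log2 of the processed intensity, less the 75th percentile of its array, was averaged over spots of a probe (15008 probes). Probes well above background on at least 5 of 10 arrays (10261) were fitted with limma 3.58.1 in R 4.3.3 (lmFit, eBayes, two-sided, no covariate, Benjamini-Hochberg, threshold 0.05). The number of arrays limits the precision. Correlations used two-sided permutation tests in scipy 1.17.1 (100000 resamples for 10 arrays, exact below) and Benjamini-Hochberg over 45 pairs. The area of lost signal took in spots whose surroundings, 8 rows and 4 columns in each direction with 10 or more bright spots, were in the median over 0.75 log2 dimmer than on the other arrays. Names were updated through the sheep RefSeq table (assembly named there ARS-UI_Ramb_v3.0) and 78 by hand; probe sequences are those of the array files, and no coordinates are given.

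The members and lists were chosen with earlier results of these data known. Named genes were all member probes, the gene of smallest unadjusted p in each list, the most similar genes of each member, and markers printed beside a member. NR3C1, IL6, TNF, TIE1 and TEK were named in addition after their values were seen, as was the difference of MYOD1. For a gene with several probes, the brightest tested stood for it in lists and correlations. The code was tested on simulated data. Alternatives were normexp (offset 50), quantile normalization, the authors' table, flagged spots kept, the area left out, other filters on dim probes, a block for slide or for replicate number, either slide alone, and each array left out. The measure of spread and its alternatives were added after the data were seen.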

Additional observations from a re-analysis of the deposited data

Results flagged for a closer look

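In 3 of 34 groups of 5 arrays (17 probes in each treatment group), 1 array stood far from the other 4 by Dixon's ratio, where chance alone gives about 1 in 20. The groups are not independent, since the 17 probes stand for 10 genes on the same arrays. The count is therefore not judged against that rate. At HIF3A probe A_70_P014647 control replicate 4 read -3.11 while the other control arrays read -2.21 to -2.04. The other HIF3A probe was low on the same array. At MTHFD2 probe A_70_P045141 control replicate 2 read -1.89 and the other control arrays -3.75 to -3.43. At MTHFD2 probe A_70_P062896 the same array read -0.93 and the others -2.83 to -2.46. No explanation was tested.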

How the results depend on the processing

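No member probe was called under any alternative, nor was any probe or list gene. At an unadjusted p under 0.05 limma gave 0 to 3 of the 17 member probes. Over all probes it gave from 238 of 10260 (without control replicate 1) to 852 of 10261 (normexp). Keeping flagged spots and blocking by slide or replicate number could not change any member difference. Of the differences, 5 probes (both TXNIP probes, MTHFD2 A_70_P045142 and A_70_P062896, HIF3A A_70_P014646) kept their direction under all alternatives run. The sign of others turned as follows, and the cause was not tested. With normexp it turned for CEBPB (0.078), HIF3A A_70_P014647 (0.020), MTHFD2 A_70_P045141 (0.083), PCK1 A_70_P001436 (0.11) and A_70_P001437 (0.14) and RGS2 A_70_P012621 (0.014), and with the authors' values for RGS2 A_70_P012622 (-0.051). PCK1 A_70_P001437 was at 0.0036 without the area of lost signal. On slide 1 alone FBXO32 had -0.13, NFKBIA -0.25, RGS2 A_70_P006726 0.14 and A_70_P012621 0.16. On slide 2 alone CDKN1C had 0.13, CEBPB 0.21, HIF3A A_70_P014647 0.14, MTHFD2 A_70_P045141 0.26, PTGDS 0.45 and RGS2 A_70_P012622 -0.48. Leaving out each array in turn gave ranges across 0 for CDKN1C (-0.32 to 0.063), CEBPB (-0.40 to 0.15), FBXO32 (-0.093 to 0.22), MTHFD2 A_70_P045141 (-0.40 to 0.22), NFKBIA (-0.046 to 0.27), PCK1 A_70_P001437 (-0.61 to 0.0036), PTGDS (-0.16 to 0.14), RGS2 A_70_P012621 (-0.40 to 0.011) and A_70_P012622 (-0.20 to 0.31). The number of pairs called was 0 to 1 when an array was left out (1 without control replicate 1). Replicate numbers were not taken as pairing the samples: deviations of same-numbered arrays correlated at 0.22, -0.005, 0.15, 0.19 and 0.022, and 3 of 5 control arrays correlated best with their own number. With the replicate block 0 probes in all and 0 member probes were called (396 and 3 unadjusted). Those 3 were TXNIP A_70_P001432 (limma unadjusted p 0.0423), HIF3A A_70_P014646 (0.0194) and PCK1 A_70_P001437 (0.0481), while TXNIP A_70_P001431 had 0.0679. For HIF3A A_70_P014646 and PCK1 A_70_P001437, this fit kept the readings of cortisol replicate 4 from the area of lost signal. Without that area, and without the block, their differences were -0.30 ± 0.31 and 0.0036 ± 0.35 (SE). PCK1 A_70_P001436 and A_70_P001437 were not well above background on 1 and 2 of the 10 arrays.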
